A study of Mus musculus with 12 samples.

Results

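The 8 Schwann cell and myelin genes described here are Mbp, Pmp22, Mag, Prx, Ncmap, Ngfr, Sox10 and S100b, of 27597 genes or names on the array. They were chosen by name, as genes used to follow Schwann cells and their myelin, with earlier results of these data known. Their probes were found by gene symbol or accession. Expression was measured in whole gastrocnemius, a calf muscle, of adult male CD1 mice on 12 one-colour arrays, with 3 arrays in each of 4 groups: Smad4 KO denervated, WT denervated, Smad4 KO control and WT control. Denervated muscles had been without nerve for 14 days and control muscles were innervated. The series' design gives each repeat of the experiment its own animals. The labels used here do not name the promoter or cell type in which Smad4 was deleted. Smad4 is the partner that receptor-activated Smads of the TGF-beta and BMP pathways share.

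Schwann cells are the glia of peripheral nerve. Around large axons they wrap a myelin sheath, and when the axon is lost they shut down the myelin genes, take up a repair state and raise Ngfr and other genes of immature Schwann cells. In muscle they occur in the nerve branches, where they make myelin, and at the neuromuscular junction as terminal Schwann cells. Of the 8 genes, Mbp and Pmp22 encode proteins of compact myelin, and Ncmap a protein of noncompact myelin. Mag is a myelin protein that faces the axon, and Prx encodes periaxin, a scaffold between the sheath and the basal lamina. S100b is a calcium-binding protein used as a Schwann cell marker, Sox10 is the transcription factor the lineage depends on, and Ngfr is the p75 neurotrophin receptor. S100b, Ngfr and transcripts of the Mbp locus are also made by cells other than Schwann cells.

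Sox10 and Egr2 are transcription factors known to drive myelin genes, so the promoters of the members were searched for the letters of their known motifs. RefSeq promoter windows on build GRCm38.p6 were available for 6 of the 8 members, with 12 windows of 250 bases before a start. No window was used for Mbp or Sox10. The Sox-type motifs ACAAAG and ACAATG and the Egr-type motifs GCGTGGG and GNGTGGGNG were searched on both strands, and a GNGTGGGNG match can contain a GCGTGGG match. Of 32851 mouse windows of the same length, 16.5% held ACAAAG, 10.69% ACAATG, 4.30% GCGTGGG and 12.7% GNGTGGGNG. Of the members' 12 windows, 4 held a match. No share of mouse windows with any of the 4 motifs is given here, so this count is not read as an excess. One window each of Prx, Ncmap and Mag is shown, because these are the members with a match. They are printed 5′ to 3′ on the strand of the gene, with matched letters in capitals. The Prx window at chr7:27499074-27499323 (plus strand) held GCGTGGG and GNGTGGGNG, each as its reverse complement, the GCGTGGG match 161 bases before the start and the other nearer to it. The Ncmap window at chr4:135385673-135385922 (minus strand), 1 of 2 for this gene, held GCGTGGG 35 bases before its start. The Mag window at chr7:30914864-30915113 (minus strand) held ACAAAG as its reverse complement 126 bases before the start, and the same letters lay in the overlapping window of a second Mag start.
Prx promoter: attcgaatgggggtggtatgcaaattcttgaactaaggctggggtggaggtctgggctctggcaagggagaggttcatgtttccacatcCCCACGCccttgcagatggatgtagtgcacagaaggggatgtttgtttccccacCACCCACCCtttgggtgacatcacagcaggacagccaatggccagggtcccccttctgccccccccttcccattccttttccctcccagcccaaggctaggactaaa
Ncmap promoter: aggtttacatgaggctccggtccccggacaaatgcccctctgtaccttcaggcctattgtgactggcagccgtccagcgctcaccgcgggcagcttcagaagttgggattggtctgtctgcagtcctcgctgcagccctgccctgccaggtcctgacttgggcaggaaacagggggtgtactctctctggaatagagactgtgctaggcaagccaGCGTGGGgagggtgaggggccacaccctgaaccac
Mag promoter: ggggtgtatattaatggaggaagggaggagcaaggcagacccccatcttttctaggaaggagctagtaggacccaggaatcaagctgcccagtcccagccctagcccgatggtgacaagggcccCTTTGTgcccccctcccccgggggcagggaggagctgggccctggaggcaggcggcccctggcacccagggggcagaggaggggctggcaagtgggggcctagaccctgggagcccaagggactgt
None of the 4 motifs was in the windows of S100b, Pmp22 or Ngfr. A match describes letters only and was not tested as a binding site.

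The label of the knockout held in the data. Smad4 (probe A_52_P611867) averaged 1.90 ± 0.14 in KO and 3.32 ± 0.16 in WT denervated muscle, and 2.33 ± 0.12 in KO and 3.79 ± 0.22 in WT control muscle (SD, n = 3). These levels, like all levels here, are log2 processed signal minus the 75th percentile of the array, so 0 is the signal that 75% of probes do not exceed. KO minus WT was -1.42 in denervated muscle (adjusted p = 0.0016) and -1.46 in control muscle (adjusted p = 0.0186) by limma over 15234 genes, leaving a Smad4 signal in KO muscle. With 1 array left out, the call held in 12 of 12 fits in denervated but in 5 of 12 in control muscle. The control difference stayed between -1.55 and -1.34 in these fits. Between 50.2% and 56.4% of probes were well above background on an array, and replicates correlated at 0.974 to 0.985 across genes. The arrays lay on 4 slides, of which slide 4 was scanned on another day. Slide 4 held WT denervated replicates 2 and 3, KO denervated replicate 2, KO control replicate 1 and no WT control array. Denervation in WT muscle is therefore partly confounded with slide and scan day. All 8 members passed the filter on dim probes, through 11 of their 14 probes. Levels of different probes are not compared with each other.

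Denervation in each genotype answers what 14 days without nerve did to these genes. In KO muscle 6 of the 8 members fell with denervation (Mbp, Pmp22, Prx, Ncmap, S100b and Mag), and Ngfr rose. In WT muscle 5 fell (all of these but Mag), and Ngfr rose. Sox10 passed the test in neither genotype. The falls ran from 1.35-fold for Mag to 13.5-fold for Prx among members well above background on all KO denervated arrays, and the rise of Ngfr was 4.87-fold in KO and 5.03-fold in WT muscle. Of all genes tested, 46.9% were called in KO muscle (23.2% lower, 23.7% higher) and 39.2% in WT muscle (20.6% lower, 18.7% higher) at an adjusted p under 0.05. The median member changed by -1.77 in KO and -2.29 in WT muscle, beside 0.00 in KO and -0.02 in WT muscle over all genes. For 7 of 8 members in each genotype the denervated and control arrays did not overlap, beside 56.7% of all genes in KO and 52.9% in WT muscle. Because earlier results were known when the members were chosen, these contrasts with all genes are a description. The counts include Ncmap, which passed the filter on dim probes only through the control groups, where it was high. Its direction is therefore no separate evidence. In bulk muscle, fewer Schwann cells and less RNA per Schwann cell cannot be told apart.

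**Figure D1:**
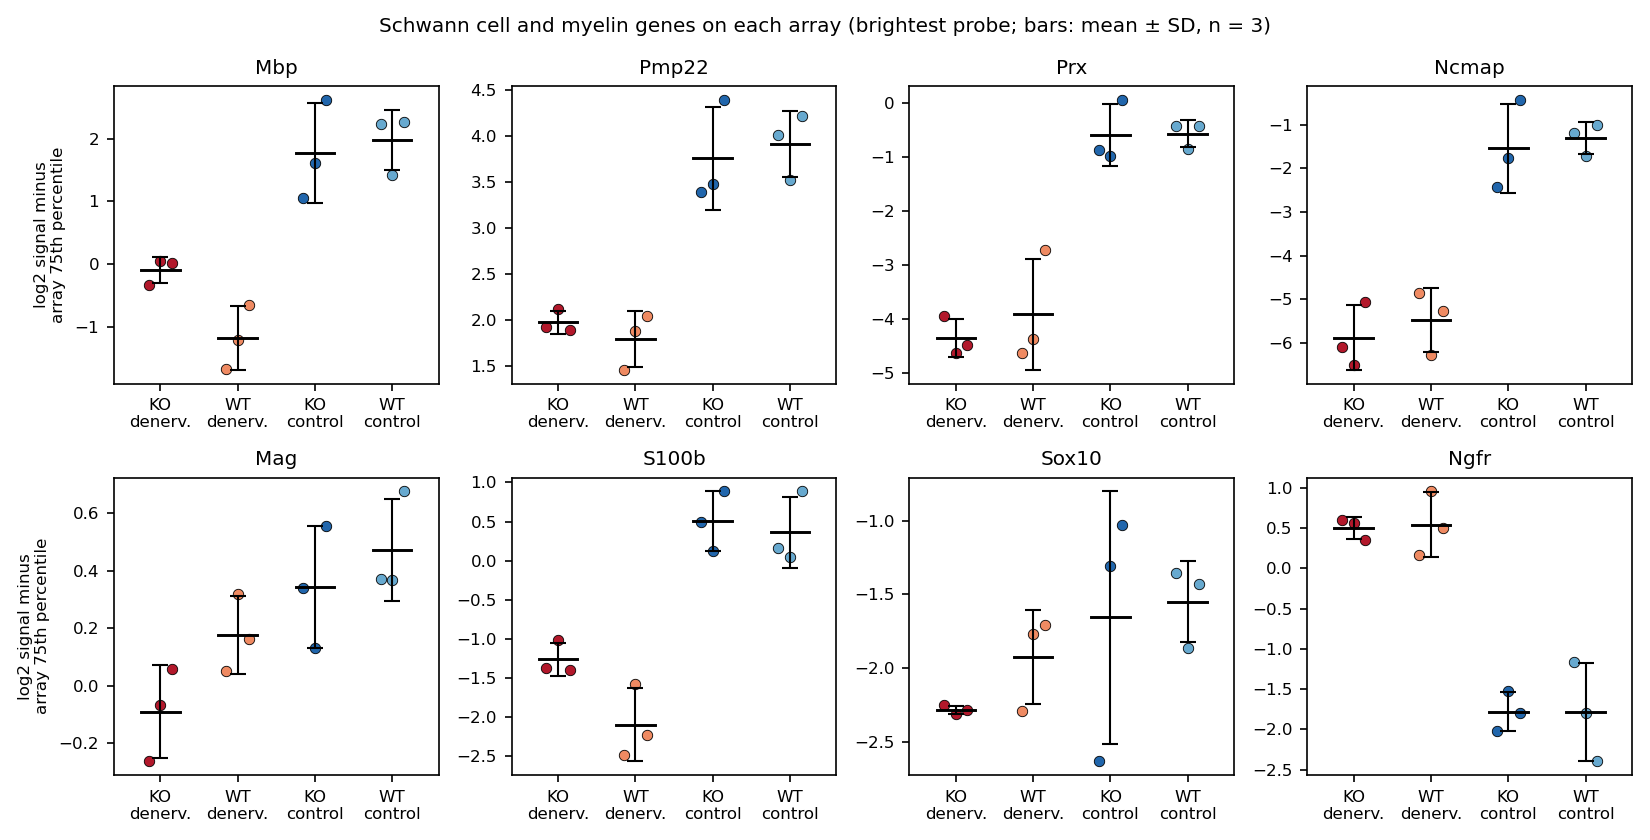
Log2 level relative to the 75th percentile of each array (vertical axis, scale differs by panel) of the brightest probe of each of the 8 genes, with a point for each array, and the mean and SD of 3 arrays as bars. Mbp, Pmp22, Prx, Ncmap and S100b lie lower on all 6 denervated than on all 6 control arrays, Ngfr lies higher, and the Sox10 groups overlap.

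Of the compact myelin proteins, Mbp, the basic protein that holds the inner faces of the myelin membrane together, was measured by a probe at chr18:82719791-82719850 on mm8 (A_51_P349205). Its level was -0.33, 0.04 and 0.01 on the KO denervated arrays, -1.68, -1.21 and -0.66 on the WT denervated, 1.05, 1.62 and 2.62 on the KO control and 2.23, 1.42 and 2.27 on the WT control arrays. Every denervated array was below every control array of either genotype. With denervation Mbp changed by -1.86 ± 0.39 in KO (SE, limma adjusted p = 0.0025) and -3.16 ± 0.39 in WT muscle (adjusted p = 1.05e-04). These are a 3.62-fold fall in KO and an 8.91-fold fall in WT muscle.

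Pmp22, a membrane protein of compact myelin, was measured at chr11:62975607-62975666 (A_51_P258529). Its level was 1.92, 2.11 and 1.88 on the KO denervated, 1.45, 1.87 and 2.04 on the WT denervated, 3.39, 3.47 and 4.39 on the KO control and 4.01, 3.52 and 4.21 on the WT control arrays. The denervated and control arrays did not overlap, and the denervated arrays of both genotypes lay within 1 log2 unit of each other. The change of Pmp22 with denervation was -1.78 ± 0.28 in KO (adjusted p = 3.77e-04) and -2.12 ± 0.28 in WT muscle (adjusted p = 1.55e-04). A second probe listed under Pmp22, annotated on the opposite strand 29.0 kb away, was not well above background on any array.

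Ncmap and Prx gave the largest differences among the members. Ncmap, named A330049M08Rik in the files and probed at chr4:134642128-134642187 (A_51_P496795), stood at -6.08, -6.49 and -5.06 on the KO denervated, -4.86, -6.28 and -5.27 on the WT denervated, -2.42, -1.76 and -0.42 on the KO control and -1.18, -1.71 and -1.003 on the WT control arrays. None of the 6 denervated arrays was well above background, and all 6 control arrays were, so it passed the filter only through the control groups. Only a bound can be given for the denervated groups: Ncmap was at least 8.09-fold lower in KO denervated than in KO control muscle (limma adjusted p = 7.35e-05) and at least 9.10-fold lower in WT denervated than in WT control muscle (adjusted p = 1.33e-04). For such a bound, the level taken for a dim array is the faintest signal it marks as well above background, or that of the gene itself where this is higher. An adjusted p beside a bound, here and below, comes from the limma fit to the measured values. It does not test the bound.

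Prx, probed at chr7:27228074-27228133 (A_52_P315837), had levels of -3.94, -4.62 and -4.47 on the KO denervated, -4.63, -4.38 and -2.73 on the WT denervated, -0.87, -0.97 and 0.07 on the KO control and -0.43, -0.85 and -0.42 on the WT control arrays. All 3 KO denervated arrays but only 1 of the 3 WT denervated arrays were well above background. WT denervated replicate 3 lay above the other WT denervated arrays and still below every control array. For Prx the change was -3.76 ± 0.45 in KO (adjusted p = 6.10e-05) and -3.34 ± 0.45 in WT muscle (adjusted p = 1.90e-04). With normexp background correction, which adds 50 intensity units, the Ncmap difference was -0.66 in KO (adjusted p = 0.389) and -0.55 in WT muscle (adjusted p = 0.533), and that of Prx in WT muscle was -1.13 (adjusted p = 0.0899).

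Mag, the glycoprotein on the axon-facing myelin membrane, moved least of the myelin members. At chr7:30607972-30608031 (A_51_P435428, minus strand) its level was -0.26, -0.07 and 0.06 on the KO denervated, 0.05, 0.32 and 0.16 on the WT denervated, 0.34, 0.13 and 0.56 on the KO control and 0.37, 0.37 and 0.68 on the WT control arrays. The denervated and control arrays did not overlap within either genotype, with a gap of under 0.1 between the nearest arrays. The Mag difference, denervated minus control, was -0.43 ± 0.16 in KO (adjusted p = 0.0437) and -0.30 ± 0.16 in WT muscle (adjusted p = 0.166). The call in KO muscle was lost without KO control replicate 1 or 3, KO denervated replicate 1 or 2, WT control replicate 1 or 2, or WT denervated replicate 3, and with 3 other settings. A second Mag probe, 7.81 kb away, was well above background on 1 of 12 arrays and was not tested.

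S100b, probed at chr10:75703680-75703739 (A_51_P208083), had levels of -1.37, -1.01 and -1.39 on the KO denervated, -2.48, -1.58 and -2.23 on the WT denervated, 0.50, 0.12 and 0.89 on the KO control and 0.16, 0.05 and 0.88 on the WT control arrays. Every denervated array was below every control array. S100b changed by -1.76 ± 0.29 in KO (adjusted p = 5.73e-04) and -2.46 ± 0.29 in WT muscle (adjusted p = 7.92e-05). This was a 3.39-fold fall in KO and a 5.51-fold fall in WT muscle.

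Sox10, probed at chr15:78982330-78982389 (A_51_P346704, minus strand), had levels of -2.25, -2.31 and -2.29 on the KO denervated, -2.30, -1.77 and -1.71 on the WT denervated, -2.63, -1.30 and -1.03 on the KO control and -1.36, -1.87 and -1.43 on the WT control arrays. KO control replicate 1 was the lowest of all 12 arrays, and the groups overlapped in both genotypes. Denervated minus control was -0.63 ± 0.35 in KO (adjusted p = 0.159, 95% interval -1.39 to 0.14) and -0.37 ± 0.35 in WT muscle (adjusted p = 0.422, interval -1.14 to 0.39). The KO value depended on single arrays: it was -1.12 (adjusted p = 0.0026) without KO control replicate 1 and -0.31 (adjusted p = 0.494) without KO control replicate 3. The other Sox10 probe was not well above background on any array.

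Ngfr was the member that rose. Its brighter probe at chr11:95384987-95385046 (A_52_P236448, minus strand) gave 0.59, 0.57 and 0.35 on the KO denervated, 0.17, 0.96 and 0.50 on the WT denervated, -2.02, -1.53 and -1.80 on the KO control and -1.17, -1.80 and -2.39 on the WT control arrays. All 6 denervated arrays were above all 6 control arrays. Denervated minus control was 2.28 ± 0.29 in KO (adjusted p = 9.94e-05) and 2.33 ± 0.29 in WT muscle (adjusted p = 1.15e-04).

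Mbp and Ngfr each had further probes that passed the filter, and these did not all move the way of the brightest probe. Over all 22535 probes kept, 46.9% were called in KO and 38.7% in WT muscle. Of the members' 11 probes, 2 were called higher and 8 lower in KO muscle (23.1% and 23.8% of all probes), and 2 higher and 7 lower in WT muscle (18.8% and 19.9% of all probes). The Mbp probe that lies farthest upstream, at chr18:82692965-82693024 (A_52_P604195), which the files name as Mbp transcript variant 8, is 26.8 kb from the downstream probe of variant 7. Its level was 1.09, 1.62 and 0.99 on the KO denervated, -0.02, 0.43 and 0.59 on the WT denervated, -0.35, -0.69 and -1.36 on the KO control and -0.95, -1.01 and -1.05 on the WT control arrays. The denervated arrays lay above the control arrays, opposite to the downstream probe, by 2.03 ± 0.26 in KO (adjusted p = 1.15e-04 over probes) and 1.34 ± 0.26 in WT muscle (adjusted p = 0.0023).

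The middle Mbp probe, A_52_P329451, between those 2, was dim. It gave -3.62, -4.59 and -3.38 on the KO denervated, -4.88, -3.94 and -3.99 on the WT denervated, -3.35, -2.96 and -1.64 on the KO control and -2.31, -2.77 and -2.37 on the WT control arrays. It fell by 1.21 ± 0.44 in KO (adjusted p = 0.0426) and by 1.79 ± 0.44 in WT muscle (adjusted p = 0.0087), the direction of the downstream probe. The KO call held in 3 of the 12 fits that left out 1 array, with values from -1.57 to -0.71, the smallest without KO control replicate 3, and was lost with no filter, normexp and only the groups compared. The WT call was lost with normexp (adjusted p = 0.895) and when slides were blocked (adjusted p = 0.0504). The Mbp locus is known to make golli transcripts, which start upstream of the myelin transcripts, in cells other than myelinating ones. Which transcripts each probe detects was not tested. With the mean of the 3 probes standing for Mbp, its difference was -0.35 in KO (adjusted p = 0.266) and -1.20 in WT muscle (adjusted p = 0.00288).

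The second Ngfr probe, A_51_P384968 at chr11:95390313-95390372, 5.33 kb upstream, was also dim. It gave -4.22, -4.41 and -4.68 on the KO denervated, -4.16, -4.15 and -3.61 on the WT denervated, -4.20, -3.56 and -3.67 on the KO control and -3.51, -3.18 and -3.37 on the WT control arrays. Denervated minus control was -0.63 ± 0.22 in KO (adjusted p = 0.0333) and -0.62 ± 0.22 in WT muscle (adjusted p = 0.0403), against the rise of the brighter probe. The call was lost in both genotypes with slide as a block, and the sign turned with normexp, at 0.13 in KO (adjusted p = 0.896) and 0.11 in WT muscle (adjusted p = 0.900). With the replicate number as a block the WT value had an adjusted p of 0.0510.

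**Figure D2:**
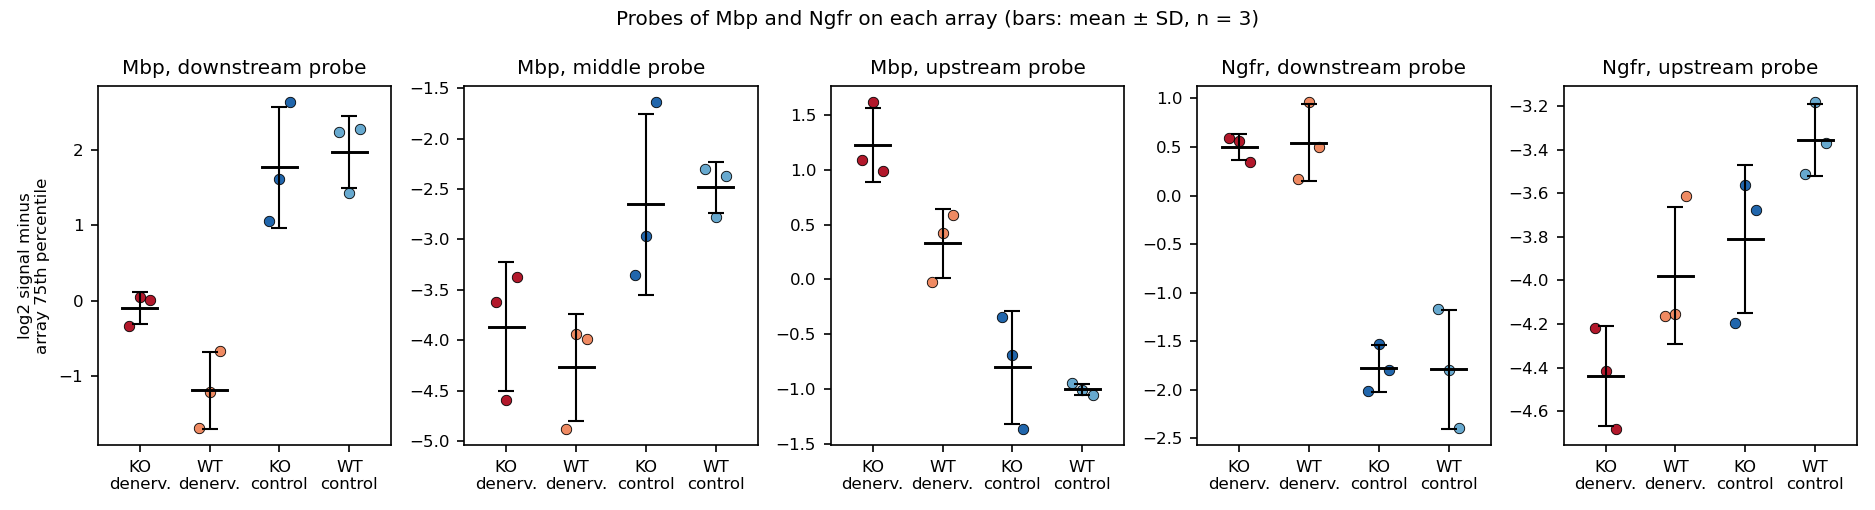
Log2 level relative to the 75th percentile of each array (vertical axis, scale differs by panel) of 3 Mbp and 2 Ngfr probes, with a point for each array, and the mean and SD of 3 arrays as bars. The upstream Mbp probe is higher and the other Mbp probes lower on denervated arrays, and the 2 Ngfr probes move in opposite directions.

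In 3 of the 4 groups 1 array was the lowest or the highest for most members. WT denervated replicate 1 was the lowest of its group for 7 of 8 members, WT control replicate 2 for 7 and KO control replicate 1 for 5. KO control replicate 3 was the highest of its group for 7 of 8 members and WT control replicate 3 for 6. In KO denervated muscle no array stood out, each being the lowest for 2 or 3 members. On slides that held both a denervated and a control array of a genotype, the difference in Mbp was -2.62 on slide 3 and -1.005 on slide 4 in KO, and -3.91 on slide 1 in WT muscle. Pmp22, Prx, Ncmap, Mag and S100b were also lower, and Ngfr higher, on the denervated array of each of these slides. For Sox10 the difference was -1.26 on slide 3 and 0.33 on slide 4 in KO, and -0.94 on slide 1 in WT muscle.

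Other myelin genes were set beside the members. Of a list of 14 other proteins of myelin and its paranodes and enzymes of myelin lipids, 11 passed the filter. Of these, 8 fell and none rose in KO muscle, and 7 fell and 1 rose in WT muscle. Over all genes tested, 23.2% were called lower and 23.7% higher in KO muscle, and 20.6% lower and 18.7% higher in WT muscle. The median change of the 11 listed genes was -1.80 in KO and -1.93 in WT muscle. It was -0.93 in KO and -1.24 in WT muscle with the 6 genes at their bound that had a group with no array well above background. These 6 passed the filter only through a group where they were high. Drp2, Gjb1 and Nfasc also passed it only through a control group, where they were higher. Of the list, only Cnp and Cadm4 were well above background on all 12 arrays, so the counts are a description. Mal, a lipid-raft protein of myelin, was at least 5.02-fold lower in KO (limma adjusted p = 1.76e-04) and at least 7.13-fold lower in WT denervated muscle (adjusted p = 2.06e-04). Pllp, encoding plasmolipin, was at least 3.52-fold lower in KO (adjusted p = 0.00105) and at least 4.15-fold lower in WT denervated muscle (adjusted p = 0.00103). No denervated array was well above background for Mal, Pllp, Ugt8a or Cldn19. Ugt8a, the enzyme that makes galactocerebroside, was at least 2.16-fold lower in KO denervated muscle (adjusted p = 2.83e-04), with 1 of 3 KO control arrays well above background, and at least 2.64-fold lower in WT denervated muscle (adjusted p = 0.00109). Cldn19, a claudin of Schwann cell tight junctions, was at least 1.76-fold lower in KO denervated muscle (adjusted p = 0.00296), with 2 of 3 KO control arrays well above background, and at least 1.99-fold lower in WT denervated muscle (adjusted p = 0.00298). Cnp, a phosphodiesterase of noncompact myelin, fell by 0.93 ± 0.21 in KO (adjusted p = 0.00335) and by 1.28 ± 0.21 in WT muscle (adjusted p = 6.24e-04). The gene that rose in WT muscle was Gldn, gliomedin, which Schwann cells place at nodes of Ranvier and which was named after its values were seen. It was at least 2.91-fold higher in WT denervated than in WT control muscle (adjusted p = 0.0011). In KO muscle, where no control array was well above background, it was not called (adjusted p = 0.868). Its KO minus WT difference in denervated muscle was called, at -2.54 ± 0.58 (limma adjusted p = 0.0483). There 1 of 3 KO denervated and 3 of 3 WT denervated arrays were well above background. The interaction of Gldn did not pass (adjusted p = 0.156).

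**Figure D3:**
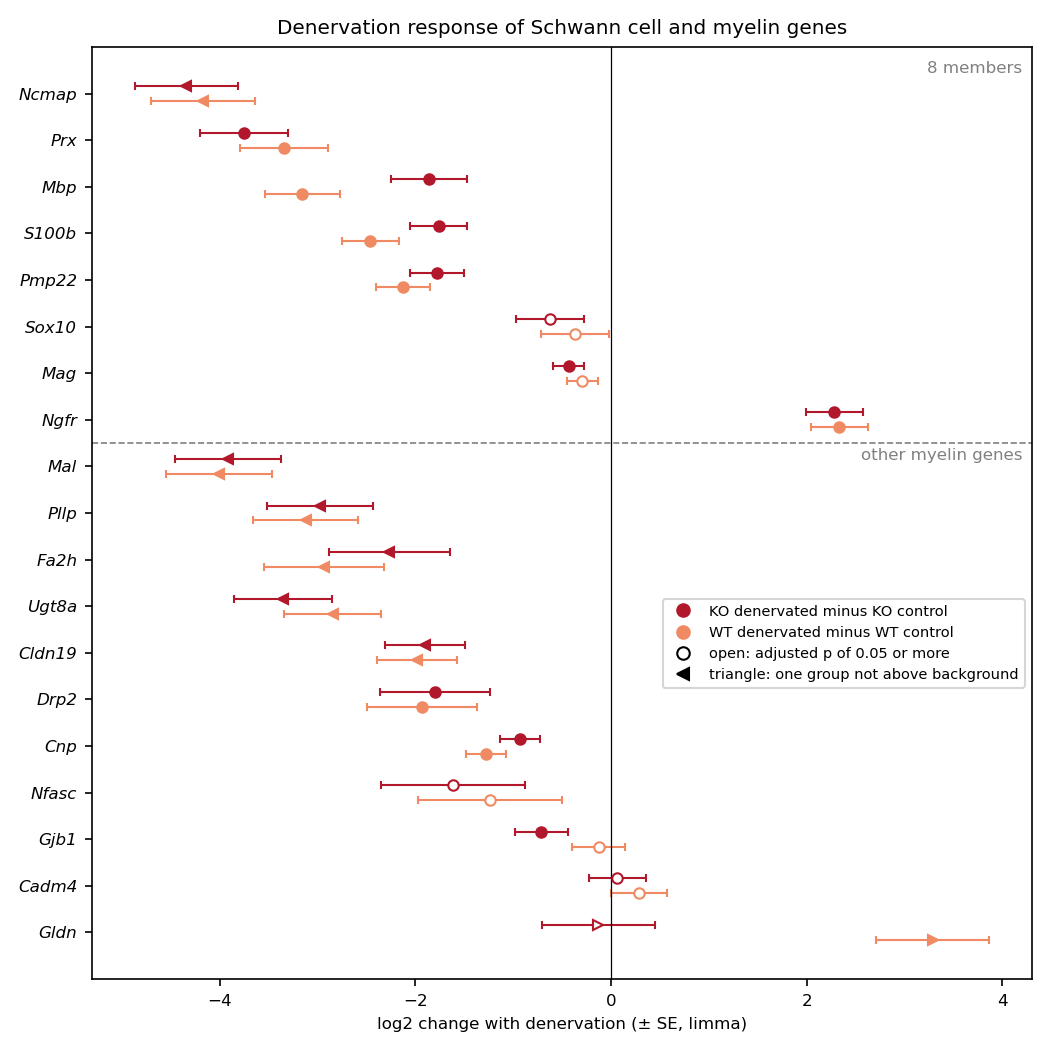
Log2 change with denervation ± SE from limma (horizontal axis) for the 8 members (top) and 11 other myelin genes (bottom), with KO denervated minus KO control above WT denervated minus WT control in each row; open points did not pass the test. Triangles mark fitted values where no array of one group was well above background, such as Ncmap and Mal. Cadm4 and Nfasc are open in both genotypes, as is Sox10.

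The factors and receptors that act on Schwann cells did not move as 1 group. Of 13 lineage regulators, receptors and ligands, 11 passed the filter, with 4 higher and 1 lower in KO muscle and 3 higher and 2 lower in WT muscle. These counts are near the share of all genes called, 46.9% in KO and 39.2% in WT muscle. Egr2, the activator of myelin genes, had a difference of 0.00 ± 0.39 in KO (adjusted p = 1.00) and -0.26 ± 0.39 in WT muscle (adjusted p = 0.621). The neuregulin receptors rose: Erbb3 by 1.87 ± 0.25 in KO (adjusted p = 1.22e-04) and 0.93 ± 0.25 in WT muscle (adjusted p = 0.0117), and Erbb2 by 1.53 ± 0.20 in KO (adjusted p = 1.41e-04) and 1.04 ± 0.20 in WT muscle (adjusted p = 0.0024). Zeb2, a repressor needed for Schwann cell maturation, rose by 1.38 ± 0.19 in KO and 1.26 ± 0.19 in WT muscle. Dhh, the hedgehog ligand that Schwann cells send to the nerve sheath, fell by 1.81 ± 0.42 in KO (adjusted p = 0.0046) and 2.05 ± 0.42 in WT muscle (adjusted p = 0.0029).

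Of 10 genes of injured and repair Schwann cells, 3 passed the filter. Jun, the factor that drives the repair state, rose by 1.75 ± 0.23 in KO (adjusted p = 1.08e-04) and 2.38 ± 0.23 in WT muscle (adjusted p = 1.56e-05). Gdnf, a growth factor for motor neurons, rose by 3.08 ± 0.51 in KO muscle, where 2 of 3 control arrays were well above background, and was at least 3.34-fold higher in WT denervated muscle. Runx2, a transcription factor, rose by 1.64 ± 0.32 in KO muscle, where 1 of 3 control arrays was well above background, and was at least 2.28-fold higher in WT denervated muscle. Gdnf and Runx2 passed the filter only through the denervated groups, where they were high, so their direction is no separate evidence. Gap43, Shh, Sox2, Gfap, Artn and L1cam were not well above background on any array. Jun, Gdnf and Runx2 are also made by cells other than Schwann cells.

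Of 8 neurotrophin ligands and partner receptors of Ngfr, 6 passed the filter, and 2 fell in each genotype. None rose, and 2 of 6 called is not above the share of all genes called, 46.9% in KO and 39.2% in WT muscle. Ntf5, a neurotrophin made by muscle, fell by 3.01 ± 0.23 in KO (adjusted p = 3.13e-06) and fell by 3.14 ± 0.23 in WT muscle (adjusted p = 2.84e-06). Bdnf fell by 0.88 ± 0.31 in KO muscle (adjusted p = 0.0394) and Ntf3 fell by 1.26 ± 0.30 in WT muscle (adjusted p = 0.0066), both ligands of Ngfr. The receptors Ntrk2 and Ntrk3 and the co-receptor Sort1 passed the test in neither genotype.

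Some markers of other cells also moved with denervation. Of all genes, 23.2% were called lower and 23.7% higher in KO muscle, and 20.6% lower and 18.7% higher in WT muscle. In WT muscle the counts of fibre and macrophage markers below were near or under these shares. Of 6 endothelial markers, 5 fell in KO and 4 in WT muscle, among them Kdr by 1.27 in KO and 1.33 in WT muscle. Their summed linear signal, in units of the array's 75th percentile, was 8.29 to 8.76 in KO denervated, 6.17 to 10.4 in WT denervated, 17.4 to 19.3 in KO control and 15.6 to 20.1 in WT control muscle. Of 5 macrophage markers, 3 rose in KO and 1 in WT muscle, and Cd68 rose by 1.26 in KO and 2.00 in WT muscle. Of 7 fibre markers, 4 fell in KO and 1 in WT muscle, including Ckm, muscle creatine kinase, which fell by 1.93 in KO and 1.35 in WT muscle. Their sum was 1242 to 1713 in KO denervated, 1524 to 2181 in WT denervated, 2469 to 2645 in KO control and 1887 to 2530 in WT control muscle. The part of these cells in the members' changes was not tested.

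The remaining markers were fewer or dimmer. Of 6 axon markers, Nefl and Nefm were not well above background on any array, while Uchl1, which is not limited to axons, rose by 3.89 in KO and 4.16 in WT muscle, and Stmn2 fell by 1.47 in KO and 1.58 in WT muscle. Of 3 perineurial markers, Itgb4 fell by 0.87 in KO and 0.91 in WT muscle, and Slc2a1 passed the test in neither. None of 6 adipocyte markers was called in either genotype, and of 4 fibroblast markers Pdgfra alone was called, falling by 0.87 in WT muscle. None of 3 oligodendrocyte and 5 melanocyte markers passed the filter. Mog, Opalin, Tyr, Tyrp1, Mlana and Pmel were not well above background on any array.

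Genotypes were compared to see whether the knockout differed from WT in either condition. In denervated muscle 0 of 8 members were called by limma, beside 2.19% of all genes. Of the 15234 genes tested, 2486 had an unadjusted p under 0.05, as had 2 of the 8 members. These were Mbp, with a KO minus WT difference of 1.09 ± 0.39 (adjusted p = 0.194, unadjusted 95% interval 0.24 to 1.94), and S100b, with 0.84 ± 0.29 (adjusted p = 0.184, interval 0.20 to 1.48). For both, all 3 KO denervated arrays lay above all 3 WT denervated arrays. Over all genes such groups did not overlap in 21.7%, so 2 of 8 members is near the background. On slide 1, KO minus WT was 1.34 for Mbp and 1.11 for S100b, and on slide 4 it was 0.98 for Mbp and 0.89 for S100b. The upstream Mbp probe was also higher in KO denervated muscle, by 1.11 on each of these slides, and passed the test with slide as a block (1.15, adjusted p = 0.0201) but not without it. For the middle Mbp probe, KO minus WT was 0.41 ± 0.44 (limma adjusted p = 0.704 over probes) and the groups overlapped. Its difference was 1.25 on slide 1 and -0.63 on slide 4.

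Of the other members, Ncmap was not well above background on any denervated array and is not compared there. The remaining 5 differed between genotypes in denervated muscle by -0.43 for Prx to 0.18 for Pmp22. With 1 array left out the Prx difference ran from -0.79 to 0.16, turning its sign without WT denervated replicate 3, and that of Pmp22 from 0.02 to 0.31. Their intervals, such as -0.42 to 0.79 for Pmp22, -0.68 to 0.60 for Ngfr and -1.42 to 0.55 for Prx, give the differences these arrays could not separate from 0. In control muscle 0 of 8 members were called, beside 0.00656% of all genes, and none had an unadjusted p under 0.05. KO minus WT there ran from -0.24 for Ncmap to 0.14 for S100b, and for 0 of 8 members were the KO control and WT control arrays apart, beside 8.44% of all genes.

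**Figure D4:**
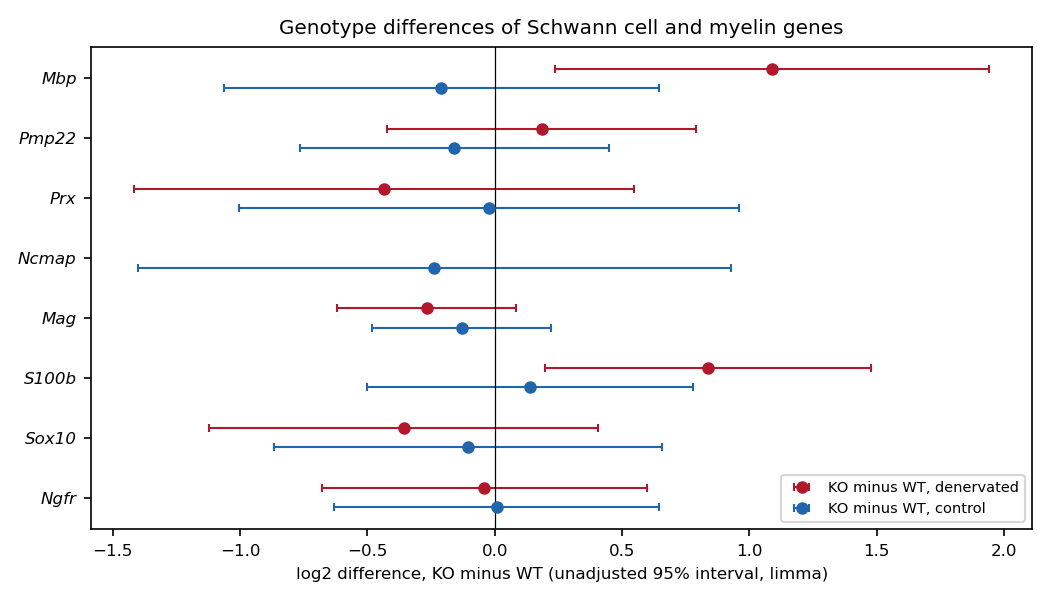
KO minus WT difference on the log2 scale (horizontal axis) with its unadjusted 95% interval from limma for each member, in denervated muscle above control muscle; Ncmap is shown for control muscle only. The intervals of Mbp and S100b in denervated muscle lie above 0, and the others include 0.

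The interaction asks whether the denervation response differed between KO and WT. No member was called, beside 0.184% of all genes. Of the 15234 genes tested, 1437 had an unadjusted p under 0.05, as had 1 of the 8 members. For Mbp the KO response minus the WT response was 1.30 ± 0.55 (adjusted p = 0.489, interval 0.09 to 2.50), and for S100b it was 0.70 ± 0.41 (adjusted p = 0.637, interval -0.21 to 1.60). The others, without Ncmap, ran from -0.41 for Prx to 0.34 for Pmp22, with Prx at 0.18 without WT denervated replicate 3. The 3.62-fold fall of Mbp in KO and its 8.91-fold fall in WT muscle are therefore not shown to differ.

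Genes whose pattern over the 12 arrays lay nearest to the mean of Mbp, Pmp22, Mag, Prx and Ncmap were found among 11231 genes well above background on every array, by the root mean square difference of centred log2 levels. The nearest genes were Rps6ka2, a ribosomal S6 kinase, at 0.33 log2 units, St8sia5, a sialyltransferase, at 0.35, and Fam78a, Smox, spermine oxidase, and 2610524H06Rik at 0.36. This order rests on low values of Ncmap, which was not well above background on any denervated array, and of Prx, which was so on 1 of 3 WT denervated arrays. With the mean of Mbp, Pmp22 and Mag, well above background on all 12 arrays (a choice made after seeing the data), 0 of these 5 genes were among the 5 nearest, which were Mybpc2, Abcd2, Cd36, Cav2 and Mbnl1 at 0.25 to 0.29 log2 units. No gene is therefore singled out as nearest to the myelin members.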

How the data were processed

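Cy3-labelled RNA of whole gastrocnemius was measured on 12 Agilent arrays of one colour. The scanner files the authors deposited give a processed intensity for each spot, background-subtracted and detrended by Feature Extraction 10.7.3.1 per the file headers, whereas the submitters' processing notes name 10.5.1.1. The deposited series matrix holds intensity on a linear scale, apparently quantile-normalized between arrays, by a method not given in the sources used here. The number of arrays limits the precision.

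Groups and replicate numbers came from the sample titles. Control and outlier spots were left out, spots of a probe averaged, and log2 values set relative to the 75th percentile of their array. Of 41174 probes, 22535 were kept as well above background on all 3 arrays of at least 1 group, and the brightest kept probe stood for its gene, giving 15234 genes, of which 234 had a missing value. Members were matched by symbol or accession in a RefSeq table. Probe positions are those of the files, on mm8. Exons are not given because no annotation of that build was used.

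The test was a two-sided limma fit (version 3.58.1, R 4.3.3, lmFit then eBayes) of 4 group means to all 12 arrays, with p-values adjusted by Benjamini and Hochberg over all genes (or all kept probes), called under 0.05. With 3 arrays a group the smallest exact permutation p is 0.1, so no such test was used. Python 3.11.15 with pandas 2.3.3 and matplotlib 3.10.9 made the tables and figures, and the fit was tested on simulated data. Alternatives were other background correction, scaling, filters, probe averaging, slide and replicate number as blocks, the series matrix, only the groups compared, and leaving out each array. Deviations of same-numbered WT denervated and WT control arrays correlated at r = 0.30, 0.11 and 0.23 over 15000 genes. For KO arrays r was 0.09, 0.02 and 0.17. Same-numbered WT denervated and KO denervated arrays, which differ in genotype, gave 0.20, 0.30 and 0.007, and some of these arrays shared a slide. These values therefore cannot show whether the numbers pair samples, and the main fit was unpaired.

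The members and lists were chosen with earlier results of these data known, and some genes of the myelin list are not reported here. Text names all members, up to 4 called genes per list and denervation comparison by adjusted p, Smad4, and the 5 genes nearest in pattern. Other genes are named as values only.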

Additional observations from a re-analysis of the deposited data

How the results depend on the processing

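The count of members called stayed at 6 or 7 of 8 for denervation in KO and at 6 for denervation in WT muscle when each array was left out in turn (lowest 6 to highest 7, and 6 to 6), and at 0 for the genotype comparisons and the interaction under the same omissions. The members behind the KO count changed: without KO control replicate 1 it was 7 with Sox10 called and Mag not. With normexp, members called fell to 5 in KO and 4 in WT muscle, and with the filter on all 12 arrays, which leaves out Ncmap and Prx, they were also 5 in KO and 4 in WT muscle. They were 6 in KO muscle with the mean of probes, no filter or only the groups compared. The member lost was Mbp with the mean of probes and Mag in the other settings. Over all genes, with normexp background correction 2719 genes were called for denervation in KO (7146 as reported) and 1909 in WT muscle (5979 as reported), 25 for KO against WT in denervated muscle (333 as reported), 0 in control muscle (1 as reported) and 0 for the interaction (28 as reported). KO against WT in denervated muscle gave 203 genes with no filter, 126 with only the groups compared and 151 to 320 without each array. KO against WT in control muscle gave 5 with the array median or quantile normalization, 4 with the series matrix or the mean of probes, 2 with the filter on all 12 arrays, 0 with no filter, only the groups compared or slide as a block, and 0 to 2 without each array. The interaction gave 5 with no filter, 4 with slide as a block, 12 with the filter on all 12 arrays and 5 to 51 without each array. With the replicate number as a block, every member's call held except that of the dim Ngfr probe in WT muscle. KO against WT in control muscle then gave 0 genes. The 1 gene called there in the main fit was Smad4, so its call was lost in each setting that gave 0.

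The sign turned for the dim Ngfr probe with normexp (0.13 in KO and 0.11 in WT muscle), for Cldn19 in WT muscle with normexp (0.19), and for the fibre marker Myh1 in KO muscle with the series matrix (0.19) and quantile normalization (0.22). The cause was not tested. Signals near background limit Ncmap, Prx, Mal, Pllp, Ugt8a and Cldn19, whose calls normexp removed in at least 1 genotype.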
